A study of Mus musculus with 3 samples.

Results

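The genes examined were 9 members of the POU family of transcription factors other than Oct4: Pou2f1 (Oct1), Pou2f2 (Oct2), Pou2f3 (Oct11), Pou3f1 (Oct6), Pou3f2 (Brn2), Pou3f3 (Brn1), Pou4f1 (Brn3a), Pou4f2 (Brn3b) and Pou6f1 (Brn5). They were taken by name from the GENCODE vM21 annotation of mouse genome build mm10, out of 21938 protein-coding genes, and each was scored for peaks of the histone acetyltransferase HBO1 at its transcription start sites (TSSs), in its gene body and within 50 kb. HBO1 was assayed by chromatin immunoprecipitation and sequencing (ChIP-seq) in mouse embryonic stem cells (ESCs) deficient for Oct1, so the line in every sample is deficient for one of the genes examined. The cells were grown with LIF under 2i conditions (3 µM of the GSK3 inhibitor CHIR99021 and 1 µM of the MEK inhibitor PD0325901), were taken off their fibroblast feeders on gelatin, and were fixed with 1% formaldehyde. The samples were 2 immunoprecipitations of HBO1 and 1 input (fixed chromatin sequenced without immunoprecipitation). No Oct1-proficient ESCs were among these samples, and the antibody of the second ChIP sample is entered as HBO2 in 1 label although its title names HBO1.

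The data hold a single list of 13823 peaks, taken here as pooled over both ChIP samples although the sources used do not state how they were combined, so peaks have no replicate values, no spread between replicates could be computed and no test was run. Each peak carries a fold enrichment over the local background and a −log10 q value. The input held 31973678 aligned read ends, with a median of 2 per 1-kb window of the genome. Levels of mRNA were not measured in these samples, and a weak peak in a bulk culture cannot tell few cells with HBO1 at a site from little HBO1 in each cell.

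POU proteins bind DNA through a POU-specific domain and a POU homeodomain joined by a flexible linker. Together these contact the octamer ATGCAAAT, and pairs of POU proteins can also bind a palindromic element called MORE, made of the letters ATGCAT followed by the same ATGCAT. HBO1, also named KAT7, is the catalytic subunit of complexes that acetylate histones H3 and H4, and one of its scaffold proteins is Jade1. Among the POU genes, Oct1 is made in nearly all cell types. Oct2 is best known from B cells, Oct11 from keratinocytes and tuft cells, and the class III and class IV factors from the developing nervous system. Oct4 (Pou5f1) is the family member that sustains pluripotency in ESCs.

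Pou2f1 was the one gene of the 9 with an HBO1 peak at a start site. Its peak, at chr1:166001841-166002449, was 609 bp wide and enriched 2.40-fold at a −log10 q of 9.90, and its summit at position 166002228 lay in the first intron, 450 bp downstream of the outermost TSS. No peak covered any of the 36 distinct TSSs of the 9 genes, whereas 10.9% of protein-coding genes had a TSS covered. A peak edge lay within 1 kb of a TSS for 1 of 9 genes, against 21.7% of protein-coding genes. A peak overlapped the gene body of 1 of 9, against 28.2%, and a peak lay within 50 kb of the gene for 4 of 9, against 62.0%. These shares of all genes describe the background and were not tested against the 9 genes, which are too few for a share to be precise.

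The bases around the Pou2f1 summit are shown because they hold the sole peak inside any of the 9 genes. The 300 bases of chr1:166002078-166002377 (mm10) overlapped no annotated exon and are written 5′ to 3′ on the minus strand, which is the coding strand of Pou2f1, with CpG dinucleotides in capitals.
Pou2f1 summit: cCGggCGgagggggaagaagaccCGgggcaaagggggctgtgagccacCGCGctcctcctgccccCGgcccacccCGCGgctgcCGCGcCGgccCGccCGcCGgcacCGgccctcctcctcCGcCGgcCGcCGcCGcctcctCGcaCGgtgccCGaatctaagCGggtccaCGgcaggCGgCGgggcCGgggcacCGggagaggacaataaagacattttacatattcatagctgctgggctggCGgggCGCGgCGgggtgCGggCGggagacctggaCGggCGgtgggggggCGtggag
This stretch held 38 CpG dinucleotides and had a GC content of 76.3%. Its ratio of observed to expected CpG (the CpG count over the count that its C and G contents would give) was 0.87.

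For comparison, the 250 bases upstream of the start of Pou4f1 and Pou6f1 are given with the same marking. These are starts rich in CpG with no HBO1 peak within 15 kb. The Pou2f1 stretch above is 300 bases around a summit downstream of the TSS, so place and length differ. Among the genes without a peak at a start whose upstream sequences were read, these 2 held the most CpG. Both were read from RefSeq promoter sequences on GRCm38.p6, which matched the genome base for base, and both lie on the minus strand, Pou4f1 at chr14:104468000-104468249 and Pou6f1 at chr15:100599985-100600234.
Pou4f1 upstream: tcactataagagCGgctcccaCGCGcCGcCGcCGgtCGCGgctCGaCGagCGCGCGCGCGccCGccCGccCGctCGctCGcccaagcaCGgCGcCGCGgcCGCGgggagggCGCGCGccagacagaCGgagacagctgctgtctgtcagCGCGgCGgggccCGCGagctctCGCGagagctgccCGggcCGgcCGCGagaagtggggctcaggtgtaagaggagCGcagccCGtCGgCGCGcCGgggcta
Pou6f1 upstream: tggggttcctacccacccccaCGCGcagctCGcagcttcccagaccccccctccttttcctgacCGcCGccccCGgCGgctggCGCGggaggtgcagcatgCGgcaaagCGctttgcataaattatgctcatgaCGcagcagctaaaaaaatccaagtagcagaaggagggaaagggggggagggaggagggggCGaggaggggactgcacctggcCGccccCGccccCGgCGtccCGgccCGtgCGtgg
The Pou4f1 sequence held 47 CpG and had a GC content of 78.0%, and the Pou6f1 sequence held 20 CpG and had a GC content of 68.0%. The RefSeq window at the 5′ cluster of Pou2f1 starts, chr1:166002635-166002884, held 29 CpG in 250 bases and is not printed, since it reaches past the outermost GENCODE TSS into transcribed sequence. The part of CpG content in the presence of a peak was not tested. Matching RefSeq entries were used for 7 of the 9 genes. The upstream sequences of Pou3f2, Pou3f3 and Pou4f2 held 18, 15 and 17 CpG, respectively. The window of Pou2f2, at internal starts of that gene, held 12, and the windows of 2 internal Pou2f1 starts held 2 each.

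**Figure D1:**
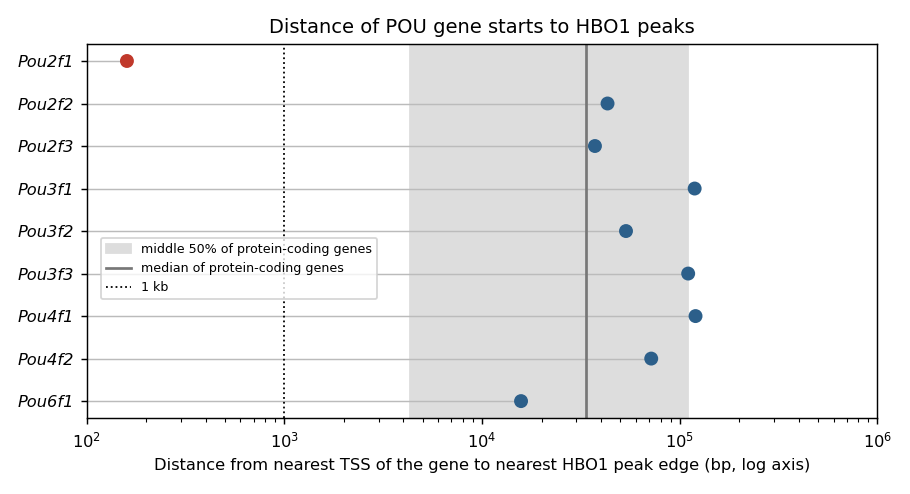
Distance in bp (log axis) from the nearest TSS of each of the 9 POU genes to the edge of the nearest HBO1 peak, with the median (line) and the middle 50% (grey band) of 21938 protein-coding genes. Pou2f1 (red) lies at 160 bp and the other 8 genes (blue) lie between 15.8 and 120 kb.

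The class II genes were Pou2f1, Pou2f2 and Pou2f3, and they differed from each other in where their nearest peak lay. Pou2f1 (ENSMUSG00000026565.18, chr1:165865154-166002678, minus strand) spans 137525 bp and has 18 annotated transcripts from 14 TSSs. The edge of its peak was 160 bp from the closest of them, and 17.8% of protein-coding genes had a peak nearer than that. All 7 TSSs within 1 kb of a peak belonged to the cluster at the 5′ end of Pou2f1. The other 29 TSSs of the 9 genes were at least 15750 bp from a peak, the 7 remaining Pou2f1 starts included.

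The Pou2f1 peak was of below-median fold enrichment and above-median −log10 q among peaks at gene starts. Peaks within 1 kb of any TSS numbered 5625, and 34.6% of these were lower in fold enrichment, with 65.1% at a lower −log10 q and 78.3% a smaller width. The medians of those peaks were a fold enrichment of 2.69, a −log10 q of 7.84 and a width of 428 bp. Input was deep at the Pou2f1 summit, with 127 read ends in 1 kb against a median of 79 at the 5625 peaks; the part of input in the fold enrichment was not tested. Among the 1518 such peaks with 100 to 159 input read ends, the median fold enrichment was 2.32 and the median −log10 q 8.06. Pou2f1 stood above 57.1% of them in fold enrichment and above 63.8% in −log10 q. Fold enrichment in that class ran from 1.61 to 7.61. The peak as a whole had a GC content of 78.3%, 77 CpG and an observed-to-expected CpG ratio of 0.84. Neither the octamer nor MORE with up to 1 mismatch occurred in the peak or the 200 bp on either side, on either strand.

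A second peak near Pou2f1 lay past its 3′ end, at chr1:165860994-165861398. It was 3756 bp from the gene and 2778 bp from a TSS of Cd247, which encodes the zeta chain of the T cell receptor complex, and it lay inside the annotated span of Cd247, on the plus strand at chr1:165788681-165877277. Its fold enrichment was 4.58 and its −log10 q 4.47, with 4 input read ends in 1 kb. It therefore ranked higher than the intronic peak in fold enrichment (above 62.9% of all peaks, against 19.3%) and lower in −log10 q (above 17.8%, against 74.3%). A ratio over so few input read ends is imprecise.

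Pou2f2 (ENSMUSG00000008496.19, chr7:25087344-25179726, minus strand) had no peak in its 92383 bp. The closest peak to any of its 5 TSSs was 43128 bp away, and 55.2% of protein-coding genes had one nearer. That peak, chr7:25077356-25077730, lay 9614 bp past the 3′ end of Pou2f2 and 72 bp from a TSS of the zinc finger gene Zfp574. Its enrichment was 2.46-fold at a −log10 q of 8.59, with 80 input read ends. The wider surroundings were rich in peaks, with 23 within 500 kb of the gene, the most for any of the 9 genes and above the median of 8 for protein-coding genes.

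Pou2f3 (ENSMUSG00000032015.16, chr9:43123939-43210369, minus strand) likewise had none in its 86431 bp. Its nearest peak, chr9:43105440-43105960, was 17979 bp past the 3′ end and 37244 bp from the closest TSS and covered a TSS of the neighbouring gene Arhgef12. Its fold enrichment was 2.58 and its −log10 q 11.3, the highest −log10 q among the 6 peaks within 50 kb of the 9 genes. Of 1571 protein-coding genes 80 to 140 kb long, the size range of these class II genes, 51.4% had a peak in the gene body. In the class II genes this was 1 of 3.

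The class III genes Pou3f1, Pou3f2 and Pou3f3 encode factors of neural and glial development, and all are short genes of a single annotated TSS. None had a peak within 50 kb. Pou3f1 (ENSMUSG00000090125.3, chr4:124656807-124660655, plus strand), whose product Oct6 acts in Schwann cell myelination, was 118944 bp from its nearest peak, chr4:124537573-124537863 (fold enrichment 5.48, −log10 q 6.31). Pou3f2 (ENSMUSG00000095139.2, chr4:22482780-22488366, minus strand), whose product Brn2 acts in neural progenitors, was 53470 bp from the peak at chr4:22541836-22542201 (fold enrichment 2.91, −log10 q 7.84). Pou3f3 (ENSMUSG00000045515.3, chr1:42695768-42703176, plus strand), whose product Brn1 acts in the developing forebrain and kidney, was 110300 bp from the peak at chr1:42585176-42585468 (fold enrichment 4.47, −log10 q 4.79). Pou3f2 sat just outside the 50-kb limit. A nearer peak was found for 76.7% of protein-coding genes in the case of Pou3f1, for 75.1% in that of Pou3f3 and for 59.8% in that of Pou3f2.

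The class IV genes were also far from any peak. Pou4f1 (ENSMUSG00000048349.9, chr14:104461676-104467999, minus strand), which encodes the sensory neuron factor Brn3a, had the longest distance of the 9 genes, 120168 bp to chr14:104588167-104588614 (fold enrichment 2.24, −log10 q 3.72), and 76.9% of protein-coding genes had a nearer peak. Pou4f2 (ENSMUSG00000031688.4, chr8:78433010-78436645, minus strand), which encodes the retinal ganglion cell factor Brn3b, was 71730 bp from chr8:78508375-78509282 (fold enrichment 3.27, −log10 q 21.7), a peak that covered a TSS of the RNA-binding protein gene Rbmxl1. Classes III and IV together thus gave 0 of 5 genes with a peak within 50 kb. Among 7774 protein-coding genes up to 10 kb long, 53.2% were within 50 kb of a peak and 14.2% held one in the gene body. Of the 824 such genes in the 2 highest deciles of GC content at the start, where 4 of the 5 class III and IV genes fell, the outermost TSS of 38.7% was within 1 kb of a peak. The part of gene length or GC content in the absence of peaks was not tested.

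Pou6f1 (ENSMUSG00000009739.17, chr15:100575318-100599984, minus strand), the class VI member, had no peak in its 24667 bp, and the distance from its nearest TSS to a peak, 15750 bp, was the shortest after that of Pou2f1. Both of the peaks within 50 kb of it covered TSSs of the upstream neighbour Dazap2, at 15750 and 16218 bp from Pou6f1. The nearer, chr15:100615734-100616036, was enriched 1.97-fold (−log10 q 6.09) and the farther, chr15:100616202-100616644, 1.99-fold (−log10 q 3.14). Both were low in fold enrichment, above 5.17% and 5.75% of all peaks, respectively. In −log10 q the nearer stood above 38.4% of all peaks and the farther above 5.15%.

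**Figure D2:**
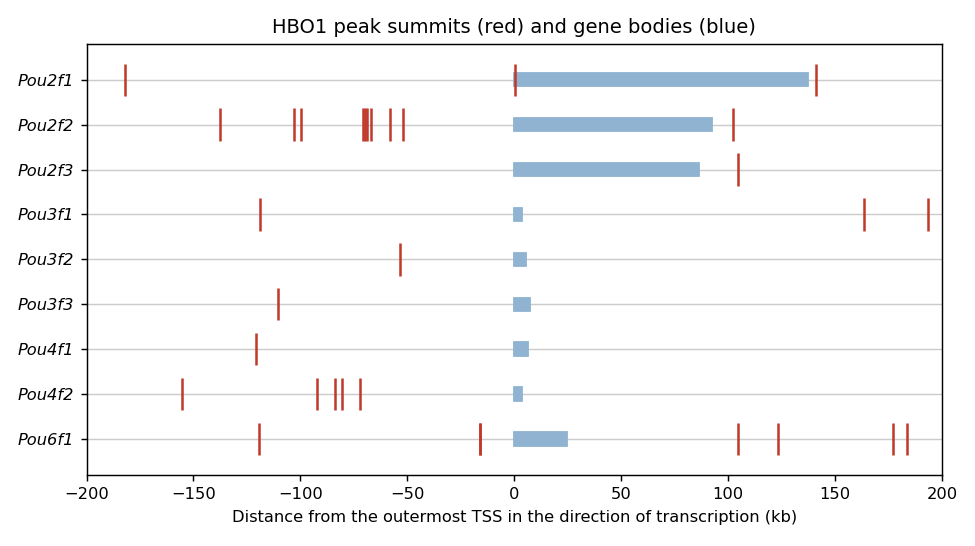
HBO1 peak summits (red lines) and gene bodies (blue bars) for the 9 POU genes, placed by distance in kb from the outermost TSS in the direction of transcription, out to 200 kb on each side. The sole summit inside a gene body is that of Pou2f1, 450 bp after its TSS, and both summits just upstream of Pou6f1 are at Dazap2.

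Of the 6 peaks within 50 kb of these genes, 4 thus lay at or within 1 kb of a TSS of another gene (Zfp574, Arhgef12 and, with 2 peaks, Dazap2), 1 lay near the start of Pou2f1 and 1 lay past the 3′ end of Pou2f1 and inside Cd247. The median distance from gene start to nearest peak was 53.5 kb over the 9 genes and 62.6 kb without Pou2f1, against 33.5 kb over all protein-coding genes. More than 100 kb separated 3 of the 9 genes from a peak, as it did for 26.8% of protein-coding genes. Within 500 kb, the counts of peaks were 7 for Pou2f1, 5 for Pou2f3, 10 for Pou3f1, 7 for Pou4f2 and 16 for Pou6f1. Pou3f2, Pou3f3 and Pou4f1 had 2 each, a count that 16.3% of protein-coding genes had or went below.

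The starts of most of these genes were rich in GC and in input, as are gene starts that have HBO1 peaks. In the 1 kb around the outermost TSS, GC content was 66.6% for Pou2f1, 66.1% for Pou2f2, 52.8% for Pou2f3, 62.7% for Pou3f1 and 66.9% for Pou3f2. It was 56.0% for Pou3f3, 70.1% for Pou4f1, 66.8% for Pou4f2 and 69.2% for Pou6f1. Hence 7 of the 9 genes fell in the highest 2 deciles of protein-coding genes, Pou3f3 in decile 6 and Pou2f3 in decile 5. For Pou2f2 the outermost TSS is that of a retained-intron transcript. Coding starts 47214 to 47249 bp farther into Pou2f2 had a GC content of 54.2% to 55.0%. The share of genes with a peak within 1 kb of that TSS climbed from 0.273% in decile 1 to 52.5% in decile 10, and was 43.4% over the 4388 genes of deciles 9 and 10. Of the 7 POU genes there, 1 had such a peak. Pou4f1 had the window richest in CpG, with 125 CpG and an observed-to-expected ratio of 1.02, followed by Pou2f1 with 107 and 0.99.

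**Figure D3:**
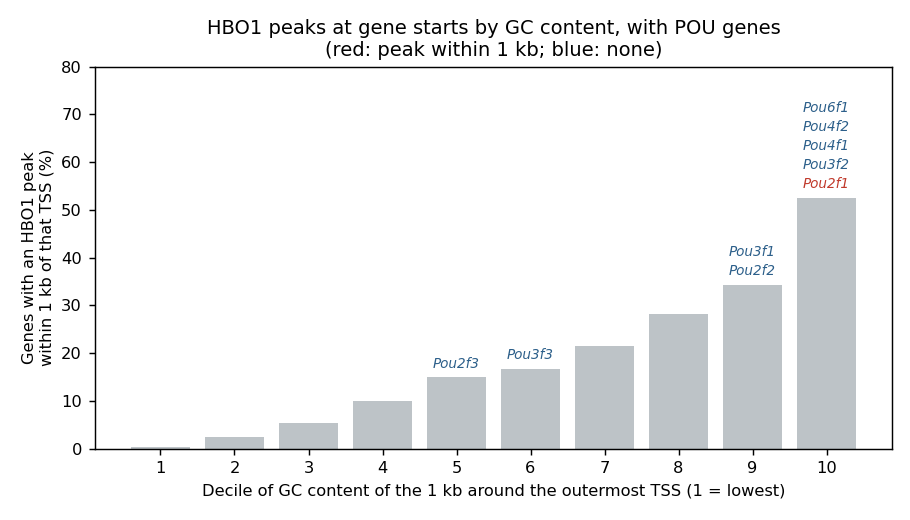
Share of protein-coding genes with an HBO1 peak within 1 kb of the outermost TSS (bars, %), by decile of the GC content of the 1 kb around it, with the POU genes written above their decile (red with a peak, blue without). Pou2f1 is the one with a peak among the 5 POU genes of decile 10, where 52.5% of all genes have one.

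Input read ends give how much chromatin was sampled at each start. Pou2f1 had 116 in the 1 kb around its outermost TSS (exact Poisson 95% interval 95.9 to 139), Pou2f2 110, Pou3f1 97, Pou4f2 97, Pou3f2 94, Pou4f1 91 and Pou6f1 81. Pou2f3 and Pou3f3 had 44 each (32.0 to 59.1). Neighbours in this order from 116 down to 81 had overlapping intervals, while the interval of 44 lay below that of 81. The intervals cover counting error only, and the paired ends of 1 fragment are counted separately. With the first read of each pair alone, the counts were 40 for Pou6f1 (28.6 to 54.5), 22 for Pou2f3 (13.8 to 33.3) and 23 for Pou3f3 (14.6 to 34.5), so these intervals overlapped and the separation was lost. Read ends of mapping quality of at least 20 gave the same 9 counts.

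The share of protein-coding genes with a peak near the start rose with input, from 3.08% at 0 to 19 read ends to 53.2% at 160 to fewer than 500. Of 4576 protein-coding genes with 80 to 119 input read ends, 36.1% had a peak that close to the outermost TSS (within 1 kb). In this class fell 7 POU genes, of which 1, Pou2f1, had such a peak. The 2111 TSS peaks with 80 to 119 input read ends around the summit had fold enrichments from 1.64, with a median of 2.40. Enrichment below the smallest listed value would not appear in the list. For 40 to 59 read ends, the class of Pou2f3 and Pou3f3, the share with a peak was 18.9%.

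**Figure D4:**
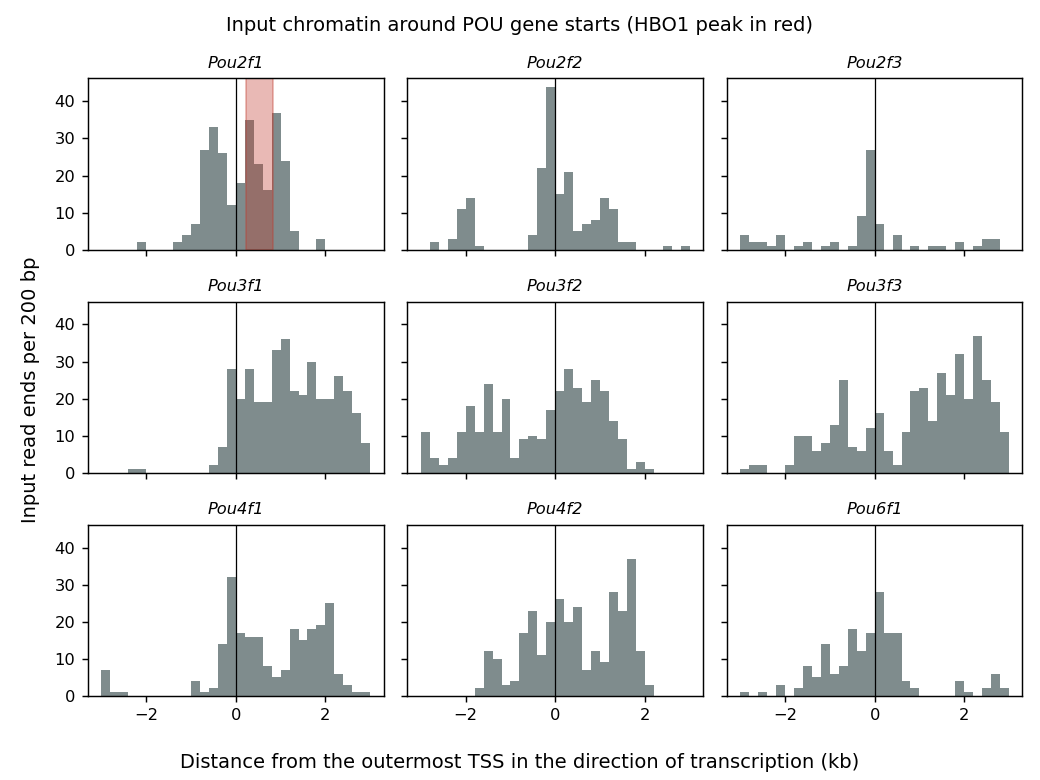
Input read ends per 200 bp over 3 kb on each side of the outermost TSS of each POU gene, in the direction of transcription, with the extent of the HBO1 peak in red. All 9 genes have input at the TSS itself, Pou2f1 and the genes without a peak alike, and several, such as Pou2f1, Pou3f1, Pou4f1 and Pou4f2, have stretches upstream with little or none.

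Set against the mean of genomic windows of like GC content, the input at 7 of the 9 outermost starts had an interval that held the expected number. The ratio of observed to expected read ends was 1.09 for Pou2f1, 1.04 for Pou2f2, 1.08 for Pou3f1, 0.885 for Pou3f2, 0.889 for Pou3f3, 0.829 for Pou4f1, 0.913 for Pou4f2 and 0.743 for Pou6f1. Pou2f3 was above its expectation at 1.95, with 44 read ends against 22.6 expected, and Pou6f1 was below it, with 81 (64.3 to 101) against 109. With windows around coding TSSs as the expectation, the ratio was 1.31 for Pou2f3, whose interval then held the expected 33.6. For Pou6f1 it was 0.767, and the interval of read ends lay below the expected 106. These intervals count the paired ends of a fragment separately, which makes them too narrow. First reads alone gave 40 for Pou6f1 (28.6 to 54.5). No expectation was computed for first reads, so a shortfall at Pou6f1 is not established.

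Input at the other start sites varied within and between the genes. At Pou2f1, the 6 starts 49 to 69 bp after the outermost one had 111 to 114 read ends. Farther in, 4 starts 67667 to 67778 bp after it had 0 read ends in their overlapping 1-kb windows, where 3.09 to 3.47 were expected and where a count of 0 has an exact Poisson upper limit of 3.69. The coding start of Pou2f1 122518 bp after the outermost one had 24 (15.4 to 35.7), where 4.88 were expected. The outermost start of Pou2f2, with 110, was that of a retained-intron transcript. The coding starts 47214 to 47249 bp after it had 18 to 20 read ends, where 34.8 were expected. The internal start of Pou2f2 closest to a peak had 80. The coding start of Pou2f3 4614 bp after its outermost TSS had 94, more than the 44 at the outermost TSS. In Pou6f1 the 8 starts ranged from 11 to 91, with 91 at the start 120 bp after the outermost one. Of the 36 TSSs, 5 had no input read ends, and all were internal starts of Pou2f1. They include the 4 with overlapping windows above. The remaining start, 110559 bp after the outermost one, had 0 where 4.09 were expected, above the upper limit of 3.69. Paired ends of a fragment are counted separately, which makes that limit too low. The share of all protein-coding TSSs with no input read ends was not computed.

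Since the cells are deficient for Oct1, the input was also read over the whole Pou2f1 gene as a check of the label. The gene held 604 read ends, 4.39 per kb, which was 0.963 times the number expected from its GC content. Protein-coding genes of 80 to 140 kb had a median ratio of 0.96, with a 2.5th to 97.5th percentile range of 0.53 to 1.57. The longest stretch of Pou2f1 without a read end was 4809 bp, at chr1:165983483-165988292, it contained no exon, and 30.3% of genes of that size had a longer one. Of its 20 merged exons 14 held no read-end midpoint, at 6.57 read ends per kb of exon and 4.09 per kb of intron. At this depth the absence of any 1 of those 14 exons could not be told from sparse sampling. The allele that makes the line Oct1 deficient is not described in the sources used here.

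Octamers were searched as ATGCAAAT on both strands in the 1 kb around every TSS, and MORE as its 12 letters with up to 1 mismatch. A window of 2 of the 9 genes, Pou2f1 and Pou2f3, held an octamer, against 10.0% of protein-coding genes, and none held MORE, against 1.11%. At the outermost TSS alone the octamer count was 1 of 9, Pou2f3, against 4.06%. In both genes octamers came in pairs, which are shown here with the octamer letters in capitals, reading ATTTGCAT where the octamer is on the opposite strand. The Pou2f1 pair lies at chr1:165935181-165935351 (171 bases, minus strand), upstream of the internal starts with 0 input read ends and outside any exon, and the Pou2f3 pair at chr9:43210143-43210171 (29 bases, plus strand), within the gene and outside any exon, 198 bp after its outermost TSS.
Pou2f1 octamer pair: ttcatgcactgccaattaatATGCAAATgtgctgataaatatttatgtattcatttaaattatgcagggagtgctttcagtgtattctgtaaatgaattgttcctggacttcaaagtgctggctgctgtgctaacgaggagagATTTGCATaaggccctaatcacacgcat
Pou2f3 octamer pair: ATGCAAATaaatgtaaataaaATGCAAAT
The octamers of Pou2f1 were separated by 115 bp and those of Pou2f3 by 13 bp. The Pou2f1 pair was 66514 bp from the nearest peak at its closer octamer. Pou2f3 had a further octamer 4397 bp after its outermost TSS, by the coding start with 94 input read ends. All 3 Pou2f3 octamers were at least 100015 bp from a peak. A match to these letters is a description of the sequence and does not show that a POU protein was bound.

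Other genes of the family and its partners were read for comparison. Oct4 (Pou5f1) had 2 peaks in its gene body, the stronger at chr17:35509056-35509475 enriched 5.16-fold (−log10 q 11.2) and the weaker 1.93-fold (−log10 q 3.21). The stronger lay 235 bp from an internal TSS of Pou5f1 and the weaker 347 bp from its outermost TSS, so both were within 1 kb of a TSS. The stronger had 9 input read ends in the 1 kb around its summit, so its ratio is imprecise. The weaker was low in the list, above 4.09% of all peaks in fold enrichment and 5.39% in −log10 q. Of other POU genes, Pou1f1 was 270556 bp from a peak, Pou3f4 52086 bp and Pou5f2 350988 bp. Of 9 genes for proteins that work with POU factors, 3 had a peak within 1 kb of a TSS, beside the 21.7% of all protein-coding genes. These were Sox2, the partner of Oct4 at many ESC enhancers, enriched 6.85-fold (−log10 q 72.3), Hcfc1, the gene of host cell factor 1, 3.21-fold (−log10 q 5.65), and Snapc5, for a subunit of the complex that activates small nuclear RNA genes, 4.57-fold (−log10 q 32.0). Of the 6 without, the Oct1 and Oct2 coactivator gene Pou2af1 was 204807 bp from a peak, Snapc1 56025 bp, Snapc2 229843 bp, Snapc4 13888 bp, Gtf2b 115948 bp and Tbp 11396 bp. These distances run from a TSS, and the peak nearest to that of Tbp, chr17:15526879-15527268, lay inside the Tbp gene body.

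Among 91 genes of the Fox, Sox, Tbx, Pax and Gata families, which like the class III and IV POU genes encode regulators of development, 17 (18.7%) had a peak within 1 kb of a TSS, 25 (27.5%) one in the gene body and 47 (51.6%) one within 50 kb. Their median distance was 56352 bp, close to the 53470 bp of the 9 POU genes, with a median input of 65 read ends at the outermost TSS against 94. By family, the share with a peak within 1 kb of a TSS was 27.3% of 44 Fox, 21.1% of 19 Sox and 7.69% of 13 Tbx genes. It was 0 of 9 Pax and 0 of 6 Gata genes. These groups hold too few genes to say that they differ from the POU genes.

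Several POU genes share their start region with a gene for a non-coding RNA, which bears on which transcript a peak there would belong to. The lincRNA Gm26665, on the opposite strand, starts 282 bp from the closest Pou2f1 start. Antisense or other non-coding starts lie 362 bp from that of Pou3f1 (Gm2164) and 926 bp from that of Pou3f3 (Pantr1, with a further transcript on the same strand at 843 bp). Those of Gm49492 and Gm27209 lie 220 and 382 bp from the closest of the several Pou6f1 starts. Of these POU genes, only Pou2f1 had an HBO1 peak within 1 kb of a start. Among the TSSs of all annotated genes, the nearest to that peak was a Pou2f1 TSS, at 160 bp. The share of all protein-coding genes with a non-coding start this close was not computed.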

How the data were processed

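The authors aligned paired reads of the 2 HBO1 ChIP samples and the input to mm10 with Novoalign (version 4.03.01) and called peaks with MACS2 at q 0.005 with a maximum gap of 100. The deposited peak list gives a fold enrichment (a ratio over local background), a −log10 q value and a summit offset per peak. How the ChIP samples were combined and how duplicates were treated are not given in the sources used here. The deposited input has a line per aligned read end, with the aligner's mapping quality as a score from 0 to 70, and was not normalized.

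Peaks were compared with GENCODE vM21 genes of chromosomes 1 to 19, X and Y. A TSS was the 5′ end of any transcript, and distances ran from the peak edge. Input was counted by the midpoint of each read end in 1 kb centred on a TSS, with exact Poisson 95% intervals. The expectation was the mean of 1-kb windows of the same 2% class of GC content on autosomes other than chromosome 3. Scripts used Python 3.11.15, numpy 2.4.6, pandas 2.3.3 and scipy 1.17.1 and were tested on simulated data. With 1 pooled peak list, no p-value was computed.

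The 9 genes and the comparison lists were chosen with earlier results of these data known. All 9 genes, other POU genes and the partner genes were named, apart from 1 item that is not reported here, and of other genes those nearest to a peak by a POU gene. Fox genes were taken as Fox with a letter and a number, and the other 4 families by name and number. Alternatives covered the q threshold, the distance limits, the choice of TSS, mapping quality and duplicate positions of the input, the source of the expectation and the mismatch in MORE.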

Additional observations from a re-analysis of the deposited data

How the results depend on the processing

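When the list was limited to a −log10 q of 10 or more, 0 of the 9 POU genes had a peak within 1 kb of a TSS and 0 had one in the gene body, since the Pou2f1 peak has 9.90, and 1 gene (Pou2f3) had a peak within 50 kb, which was 1 peak in place of 6. The shares of all protein-coding genes fell as well under that threshold, to 7.97% within 1 kb, 9.43% in the gene body and 25.6% within 50 kb. Within 100 kb of the genes there were 20 peaks, and 6 of the 9 genes had 1 or more, against 75.4% of protein-coding genes. The median input over the 36 TSSs was 44 read ends, and it was 94 over the 9 outermost TSSs. The other alternatives gave counts of genes equal to those reported: a −log10 q of 5 or more (with 4 peaks within 50 kb), protein-coding transcripts, 1 TSS per gene, distances of 500 bp, 2 kb and 20 kb, the summit in place of the edge, and exact MORE. The shares of all protein-coding genes moved with some of these settings. A −log10 q of 5 or more gave 17.3% within 1 kb, 22.3% in the gene body and 53.0% within 50 kb. The share near a TSS was 18.7% with 1 TSS per gene and 22.9% within 2 kb. Shares for protein-coding transcripts, the summit, 500 bp and 20 kb were not computed, so those counts have no background beside them. The median input was 44 also at a mapping quality of at least 20, and 41 with each position counted once. The ratio of input to expectation over the TSSs had a median of 0.938, and 0.869 with windows around coding TSSs as the expectation. No paired analysis was possible because the data hold a single peak list with no replicate columns, and for the same reason no replicate could be left out. Input at the POU gene starts bounds counting error only, and enrichment too weak to be listed cannot be seen.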
